A study of Mus musculus with 14 samples.

Results

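A group of 6 genes of meiotic crossover formation, Msh4, Msh5, Hfm1, Tex11, Rnf212 and Mlh3, were followed in differentiating spermatogonia of C57BL/6J mice, isolated from the testis by the surface receptor c-KIT. They were taken by name from the 24984 gene symbols of 2 tables of raw read counts, and all 6 were in both tables and had enough counts to be tested in both. The study asked what the Polycomb protein CBX2 does at the onset of spermatogonial differentiation, in 2 experiments and 14 libraries of bulk RNA sequencing. In the deletion experiment, tamoxifen had been given to 2 Cbx2-deleted animals (Rosa26-CreERT2 with Cbx2 Flox/Δ) and corn oil alone to 2 oil controls (Rosa26-CreERT2 with Cbx2 Flox/+). Both groups thus carried the recombinase and a floxed allele, while the other Cbx2 allele and the drug differed between them together. Each dose of tamoxifen was 200 µL at 20 mg/mL into the peritoneum, on 3 days in a row. The Rosa26 driver is active in most cell types, so recombination was not restricted to germ cells. In the 23KRA experiment, 5 untreated animals homozygous for Cbx2 23KRA, in which lysines and arginines of the CaPS domain are changed to alanine, were set against 5 untreated wild-type animals. No source used here states the age of the animals. Each library was taken as 1 animal, as the labels count them.

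Crossovers are the reciprocal exchanges between homologous chromosomes that hold each pair together until the first meiotic division. Their intermediates are stabilised by the ZMM proteins, a group found from yeast to mammals, and a subset of the sites is then designated and cut as crossovers by an endonuclease that contains MLH3. These proteins act in spermatocytes during meiotic prophase, and c-KIT-positive spermatogonia include the cells that are about to enter it.

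The libraries of the deletion experiment, made with a SMART-Seq mRNA kit, held 28169990 to 31166500 counts. Those of the 23KRA experiment, made with a stranded total RNA kit, held 14562564 to 19814511 counts, and their replicates were farther apart (edgeR's common biological variation between replicates was 0.393 there and 0.0988 in the deletion). Kit, which encodes the sorted surface receptor, averaged 242 ± 40.4 CPM in Cbx2-deleted animals and 231 ± 39.5 CPM in oil controls (SD, n = 2 each), and 258 ± 27.9 CPM in 23KRA homozygotes and 254 ± 15.7 CPM in wild type (SD, n = 5 each). CPM are counts per 1000000 of the library size after TMM scaling. Of 6 tested markers of differentiating spermatogonia, Kit among them, 4 had a log2 fold change above 0 in the deletion and 2 below. In 23KRA 1 was above 0, Kit itself, and 5 were below. None was called. Their sums were 1322 to 1344 CPM in Cbx2-deleted animals and 1305 to 1319 CPM in oil controls. In 23KRA they were 1173 to 1458 CPM in homozygotes and 1316 to 1487 CPM in wild type. Cbx2 itself, the targeted gene, was at 78.5 and 86.5 CPM in Cbx2-deleted replicates 1 and 2, against 93.9 and 97.7 CPM in oil controls (log2 fold change -0.21, SE 0.12; edgeR adjusted p = 0.971). The counts cover the whole gene and do not single out the deleted bases, so reads from exons that remain are included. They do not show how far the gene was deleted in the sorted cells, and this was not tested. The animals are called Cbx2-deleted after their genotype and treatment. The genes called in the deletion were 2 markers of other testis cells, the stromal gene Dcn (11.0 ± 5.56 CPM in Cbx2-deleted animals and 3.73 ± 1.19 CPM in oil controls) and the Leydig gene Cyp17a1 (1.66 ± 0.281 CPM in Cbx2-deleted animals and 6.07 ± 1.84 CPM in oil controls; SD, n = 2 each). The summed peritubular and interstitial markers were at 18.9 to 28.1 CPM in Cbx2-deleted animals and 11.7 to 14.3 CPM in oil controls, and the summed Leydig markers at 12.6 to 14.1 CPM in Cbx2-deleted animals and 17.6 to 22.2 CPM in oil controls. Each sum includes its called gene, Dcn or Cyp17a1. Of the 6 peritubular and interstitial markers 5 had a log2 fold change above 0 and 1 below, with Col1a1 at 0.02. Of the 6 Leydig markers 5 were below 0, with Star at -0.06, and 1 was above, Lhcgr at 1.48. The summed level of 8 spermatid markers, among them protamine 1 and 2, was 2345 to 2689 CPM in Cbx2-deleted animals and 2706 to 3043 CPM in oil controls, and 220 to 1004 CPM in 23KRA homozygotes and 271 to 995 CPM in wild type. In bulk RNA, fewer cells of a type and less RNA per cell cannot be told apart.

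Polycomb complexes bind mostly at CpG-rich promoters, and the windows read for the crossover genes ranged in their number of CG dinucleotides. RefSeq promoter windows of GRCm38.p6, from 250 bases before to 50 bases after a transcript start, were matched for 5 of the 6 genes, Msh4, Msh5, Mlh3, Hfm1 and Rnf212. The windows of 3 genes are printed 5′ to 3′ to show this range, with every CG dinucleotide in capitals: Hfm1 with the most, Mlh3 between, and Msh4 with the fewest. They lie on the minus strand at chr5:106925841-106926140, chr12:85270550-85270849 and chr3:153904842-153905141.
Hfm1: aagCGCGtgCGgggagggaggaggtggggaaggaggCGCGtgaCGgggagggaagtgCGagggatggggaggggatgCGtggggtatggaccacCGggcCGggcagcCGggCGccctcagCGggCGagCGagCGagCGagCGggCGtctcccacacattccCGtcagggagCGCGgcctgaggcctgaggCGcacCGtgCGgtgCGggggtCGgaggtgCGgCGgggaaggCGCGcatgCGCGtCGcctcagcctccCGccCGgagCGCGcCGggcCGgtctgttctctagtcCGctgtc
Mlh3: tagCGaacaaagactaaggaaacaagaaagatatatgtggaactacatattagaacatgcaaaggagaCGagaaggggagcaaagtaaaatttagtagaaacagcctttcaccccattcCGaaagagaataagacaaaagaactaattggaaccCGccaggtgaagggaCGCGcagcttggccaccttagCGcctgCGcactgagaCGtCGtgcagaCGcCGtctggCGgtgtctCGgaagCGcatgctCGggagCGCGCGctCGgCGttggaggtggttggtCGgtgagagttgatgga
Msh4: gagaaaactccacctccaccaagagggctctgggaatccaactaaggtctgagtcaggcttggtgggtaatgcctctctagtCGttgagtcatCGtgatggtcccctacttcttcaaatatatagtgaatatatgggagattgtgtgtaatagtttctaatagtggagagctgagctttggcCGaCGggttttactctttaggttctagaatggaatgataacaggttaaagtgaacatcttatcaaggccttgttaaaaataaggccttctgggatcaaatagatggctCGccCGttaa
The windows held 41 CG dinucleotides for Hfm1, 27 for Msh5, 22 each for Mlh3 and Rnf212, and 6 for Msh4, where the median over all 32851 windows in the RefSeq table was 7. Another RefSeq start of Mlh3, 8 bases inside the 5′ end of the GENCODE gene, has a window with 21 CG dinucleotides. The windows of Rnf212, Mlh3, Msh5 and Hfm1 held more than 76.9, 76.9, 84.5 and 96.5% of all windows did, and that of Msh4 more than 43.6%. The Msh4 window belongs to a RefSeq start that lies 1247 bases inside the 5′ end of the GENCODE gene, and the Hfm1 window to one that lies 431 bases inside. The low end of the range is thus 1 window, which may not be the promoter of Msh4. The 2 motifs searched for were read on both strands, and no place matched both. CACGTG, the E-box recognised by the MAX and MGA partners of a non-canonical PRC1, was found in Rnf212, 28 bases after the start, and in 7.15% of all windows. CNCCTCAG, a motif reported for the meiotic inducer STRA8, was found in Hfm1 at 2 places, 66 and 6 bases before the start, once in Msh5, 82 bases before it, and in 7.94% of all windows. These matches describe the sequence only.

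All 6 genes lie on the minus strand of GRCm38 and are protein-coding: Msh4 on chromosome 3 (153857149 to 153906138), Msh5 on chromosome 17 (35028605 to 35046745), Hfm1 and Rnf212 on chromosome 5 (106840192 to 106926321 and 108729290 to 108774982), Mlh3 on chromosome 12 (85234520 to 85270599) and Tex11 on chromosome X (100838648 to 101059667). In the GENCODE annotation an exon of Msh4 shares 125 bases with a snoRNA model on the opposite strand that has no row in the tables, and no exon of the other members overlaps another gene. An antisense gene lies within the span of Rnf212 without sharing exon bases.

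Divided by exon length, the genes spanned a wide range of levels, and Tex11 stood far above the others in every group. Tex11 had 236 ± 28.3 CPM per kb of exon in Cbx2-deleted animals and 204 ± 33.9 CPM per kb in oil controls (SD, n = 2 each), and 164 ± 27.0 CPM per kb in 23KRA homozygotes and 154 ± 19.0 CPM per kb in wild type (SD, n = 5 each). Hfm1 came next, at 29.7 ± 1.21 CPM per kb in Cbx2-deleted animals and 27.0 ± 1.58 CPM per kb in oil controls. In both groups of the deletion experiment the order was Tex11, Hfm1, Msh5, Rnf212, Mlh3 and Msh4, and the ranges of no neighbours in it overlapped. In both groups of the 23KRA experiment Mlh3 came after Hfm1, at 8.18 ± 0.672 CPM per kb in homozygotes and 6.21 ± 1.04 CPM per kb in wild type (SD, n = 5 each), and Msh4 was again the lowest, at 3.21 ± 1.00 CPM per kb in homozygotes and 2.64 ± 0.789 CPM per kb in wild type. There the ranges of Mlh3 and Msh5, of Msh5 and Rnf212, and of Rnf212 and Msh4 overlapped, and these neighbours cannot be ordered beyond their spread. Tex11 made up 66.5 to 72.8% of the members' summed CPM in the deletion libraries and 61.1 to 72.4% in the 23KRA libraries. The library kits differ between the experiments, so levels across them stand side by side without a test.

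**Figure D1:**
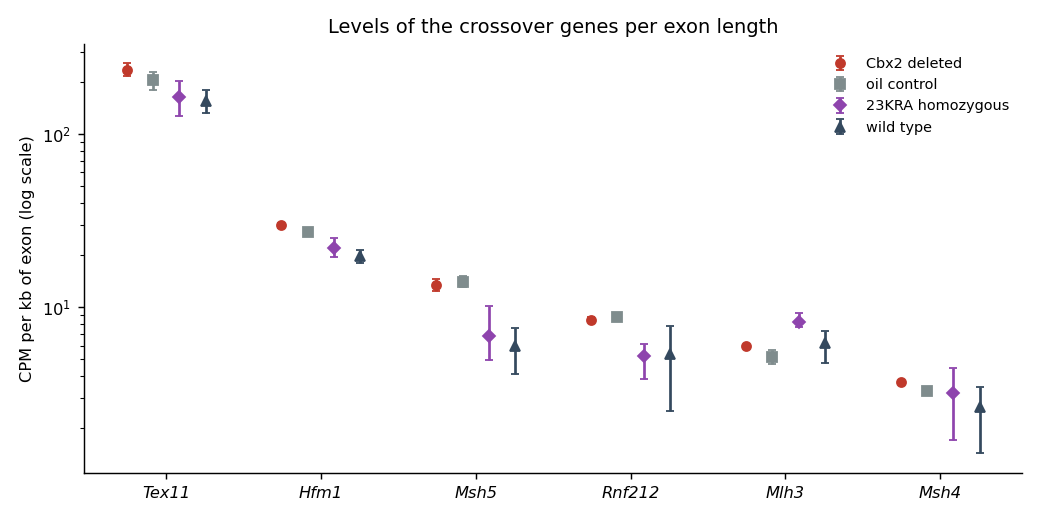
Mean CPM per kb of exon (log scale) of the 6 crossover genes in the 4 groups; bars run from the lowest to the highest library (n = 2, 2, 5 and 5). Tex11 lies between 154 and 236 CPM per kb in all group means, and Msh4 between 2.64 and 3.68.

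The first comparison asked whether the crossover genes differed between Cbx2-deleted animals and oil controls. None of the 6 passed (edgeR quasi-likelihood test, Benjamini-Hochberg over 16725 genes; smallest adjusted p among them 0.971), and none had an unadjusted p under 0.05. Of all genes tested, 0.012% were called, and 4.74% had an unadjusted p under 0.05. Of the members, 4 had a log2 fold change above 0 and 2 below, with a median of 0.15, where 49% of all genes tested were above 0 and their median was -0.0044. The 95% intervals of the 6 fold changes all lay between 0.778 and 1.39. With 2 animals a group these intervals, and the p-values, rest on a spread shared across genes. Groups did not overlap for 3 of the 6, Msh4, Hfm1 and Mlh3, each with higher values in Cbx2-deleted animals, beside 33.1% of all genes tested in either direction and 15.6% in that one. Of the spermatid markers, whose sums are given above, 8 of 8 had a log2 fold change below 0, and of 8 pachytene spermatocyte markers 6 did, with sums of 1156 to 1248 CPM in Cbx2-deleted animals and 1311 to 1365 CPM in oil controls. Their part in the members' values was not tested.

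MSH4 and MSH5 form the heterodimer that clamps recombination intermediates, and neither transcript passed the test. Msh4 had 25.7 and 25.1 CPM in Cbx2-deleted replicates 1 and 2, against 21.6 and 23.8 CPM in oil control replicates 1 and 2 (log2 fold change 0.16, SE 0.14). Both Cbx2-deleted libraries lay above both oil controls, and with 1 library left out the log2 fold change of Msh4 was 0.10 (without oil control replicate 1) to 0.23 (without oil control replicate 2). Msh5 had 68.9 and 80.2 CPM in Cbx2-deleted animals, against 72.2 and 83.1 CPM in oil controls (log2 fold change -0.06, SE 0.12). The groups interleaved, and the sign of Msh5 turned without Cbx2-deleted replicate 1 (0.05) or without oil control replicate 2 (0.05). The HFM1 helicase, the mammalian counterpart of yeast Mer3, unwinds recombination intermediates. Hfm1 had 193 and 204 CPM in Cbx2-deleted animals, against 188 and 173 CPM in oil controls (log2 fold change 0.14, SE 0.11), with the groups apart by less than the gap between the 2 libraries of either group. Without oil control replicate 2 it was 0.08 for Hfm1, and without oil control replicate 1 it was 0.21.

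TEX11, encoded on the X chromosome and related to yeast Zip4, joins synapsis to crossover formation, and men and mice with mutations of the gene can be infertile. Tex11 had 927 and 782 CPM in Cbx2-deleted animals, against 827 and 653 CPM in oil controls. Replicate 1 was the higher library in each group, and the groups overlapped. Its log2 fold change of 0.21 (SE 0.12; edgeR unadjusted p = 0.0902, adjusted p = 0.971) was 0.40 without oil control replicate 1, 0.32 without Cbx2-deleted replicate 2, 0.08 without Cbx2-deleted replicate 1 and 0.05 without oil control replicate 2. With same-numbered libraries fitted as blocks, the log2 fold change of Tex11 was 0.21 (edgeR unadjusted p = 0.00448, adjusted p = 0.219). RNF212, a RING-domain protein that stabilises factors at future crossover sites, acts in a dose-dependent way in mice. Rnf212 had 14.4 and 13.5 CPM in Cbx2-deleted animals, against 14.6 and 14.2 CPM in oil controls (log2 fold change -0.05, SE 0.15; fold interval 0.778 to 1.21). Mlh3, the endonuclease subunit of crossover resolution, had 45.4 and 44.2 CPM in Cbx2-deleted animals, against 42.4 and 35.5 CPM in oil controls (log2 fold change 0.20, SE 0.13). The lower oil control was the library farthest from the rest. Without it the log2 fold change of Mlh3 was 0.08, and without oil control replicate 1 it was 0.35.

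**Figure D2:**
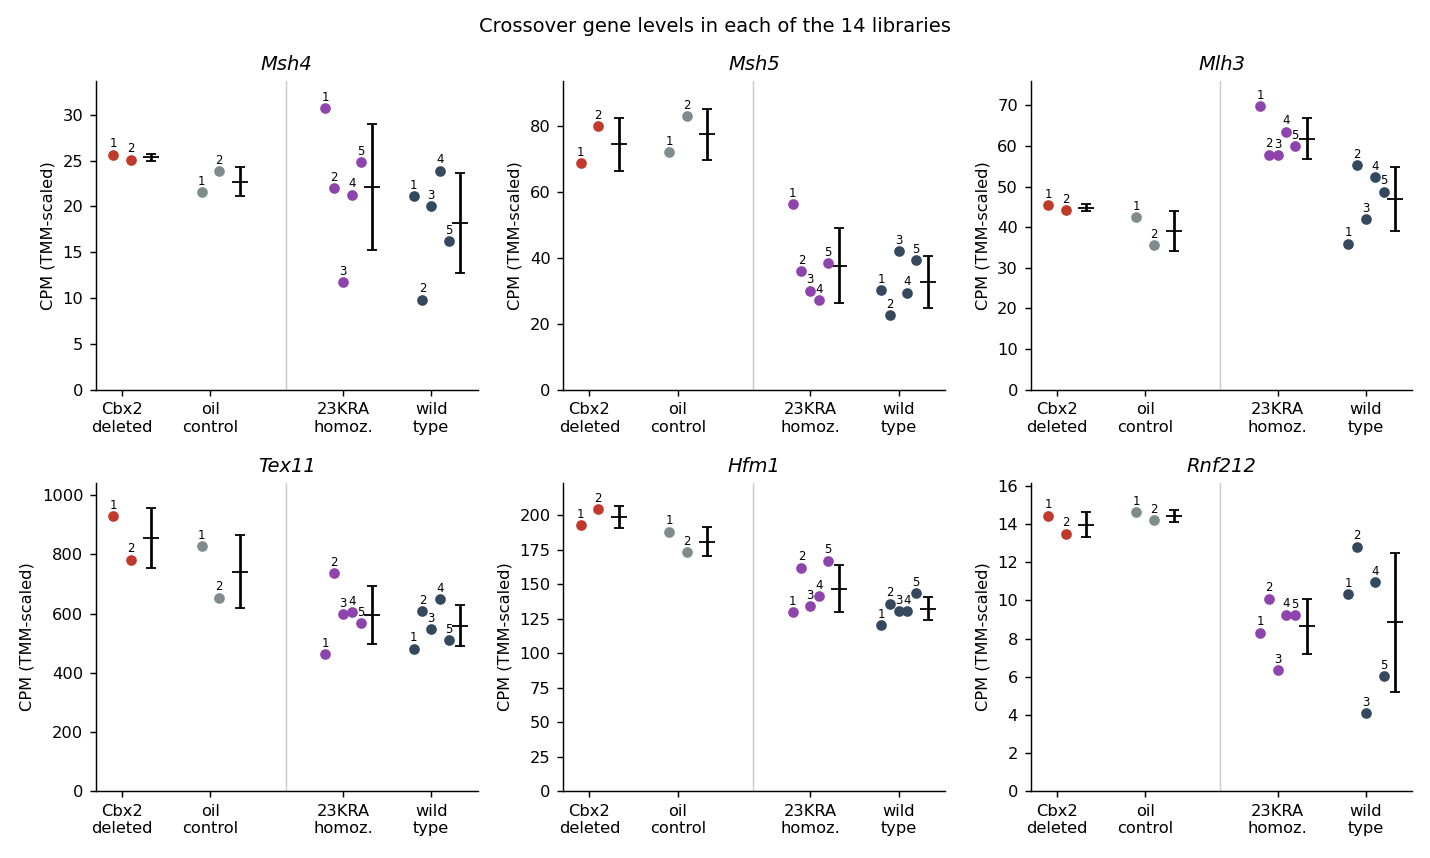
CPM (TMM-scaled) of each crossover gene in each of the 14 libraries; numbers give the replicate, and bars the mean and SD of each group (n = 2 Cbx2 deleted, 2 oil control, 5 23KRA homozygous, 5 wild type). The 5 homozygous values of Mlh3, 57.8 to 69.9 CPM, lie above the 5 wild-type values, 36.0 to 55.3 CPM, and groups of the 23KRA experiment overlap for the other 5 genes.

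The second comparison asked whether the crossover genes differed between 23KRA homozygotes and wild type. None of the 6 passed (edgeR quasi-likelihood test, Benjamini-Hochberg over 14208 genes; smallest adjusted p 1.00), as none of all genes tested did (0%). At an unadjusted p under 0.05 there was 1 member, Mlh3, beside 432 genes or 3.04% of all tested (1.68% in its direction); DESeq2 and limma-voom also called 0 genes after adjustment, with 524 and 537 at an unadjusted p under 0.05. Of the members, 5 had a log2 fold change above 0 and 1 below, with a median of 0.18, where 50.8% of all genes tested were above 0 and their median was 0.0034. The groups did not overlap for 1 of the 6, beside 0.711% of all genes tested in either direction and 0.436% in that of the member.

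Mlh3 was higher in every homozygous library than in any wild-type library. It had 69.9, 57.8, 57.8, 63.5 and 60.0 CPM in homozygous replicates 1 to 5, against 36.0, 55.3, 42.1, 52.4 and 48.7 CPM in wild-type replicates 1 to 5. The means were 61.8 ± 5.08 CPM in homozygotes and 46.9 ± 7.86 CPM in wild type (SD, n = 5 each), 132% of that in wild type. On the log2 scale the difference was 0.40 (SE 0.13; edgeR unadjusted p = 0.00633, adjusted p = 1.00), with a fold interval of 1.09 to 1.59. By unadjusted p it ranked 32 of 14208 genes, and since none passed after adjustment this difference is reported as one that failed the correction. Across 18 alternative settings its log2 fold change stayed between 0.32 and 0.47 and its adjusted p between 0.515 and 1.00. The lowest wild-type values were those of replicates 1 and 3, and replicate 3 was also the library with the highest summed macrophage markers, at 139 CPM. The other wild-type libraries held 9.38 to 32.1 CPM, and replicate 1, the lowest for Mlh3, held 19.7 CPM. Of 8 spermatid and 8 pachytene spermatocyte markers, 8 and 6 were below 0 in this comparison, with medians of -0.33 and -0.12, and the pachytene sums overlapped (105 to 363 CPM in homozygotes and 159 to 362 CPM in wild type). The part of these and of the macrophage markers in the Mlh3 values was not tested.

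The ZMM genes overlapped between homozygotes and wild type. Msh4 had 30.7, 21.96, 11.7, 21.3 and 24.8 CPM in homozygous replicates 1 to 5, against 21.2, 9.84, 20.0, 23.9 and 16.2 CPM in wild type (log2 fold change 0.28, SE 0.26). Each group held 1 low library, homozygous replicate 3 and wild-type replicate 2, and the log2 fold change of Msh4 was 0.43 without the first of these and 0.12 without the second. Msh5 had 56.5, 36.0, 30.1, 27.3 and 38.5 CPM in homozygotes, against 30.3, 22.6, 42.1, 29.5 and 39.3 CPM in wild type (log2 fold change 0.20, SE 0.20). Homozygous replicate 1 stood above all other libraries for both Msh4 and Msh5, and without it the log2 fold change was 0.12 for Msh4 and -0.00050 for Msh5. Without wild-type replicate 2 that of Msh5 was 0.10, and without wild-type replicate 3 it was 0.31. Hfm1 had 130, 162, 134, 141 and 167 CPM in homozygotes, against 121, 136, 131, 130 and 144 CPM in wild type (log2 fold change 0.15, SE 0.09; edgeR unadjusted p = 0.119). Homozygous replicates 2 and 5 lay above the wild-type range and the other 3 within it.

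Tex11 had 463, 737, 599, 606 and 567 CPM in homozygous replicates 1 to 5, against 481, 608, 548, 649 and 510 CPM in wild type (log2 fold change 0.09, SE 0.10; fold interval 0.918 to 1.23). Homozygous replicate 1, the highest library for Msh4, Msh5 and Mlh3, was the lowest for Tex11. Without homozygous replicate 2 the log2 fold change of Tex11 was -0.0011. Rnf212 had 8.31, 10.1, 6.34, 9.26 and 9.23 CPM in homozygotes, against 10.3, 12.8, 4.12, 11.0 and 6.03 CPM in wild type (log2 fold change -0.03, SE 0.32). All homozygous libraries lay inside the wild-type spread, with a coefficient of variation of 16.6% in homozygotes and 41.0% in wild type. Its libraries held 64 to 205 counts, for which counting error alone is at most 12.5%, and its 95% fold interval ran from 0.615 to 1.55.

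**Figure D3:**
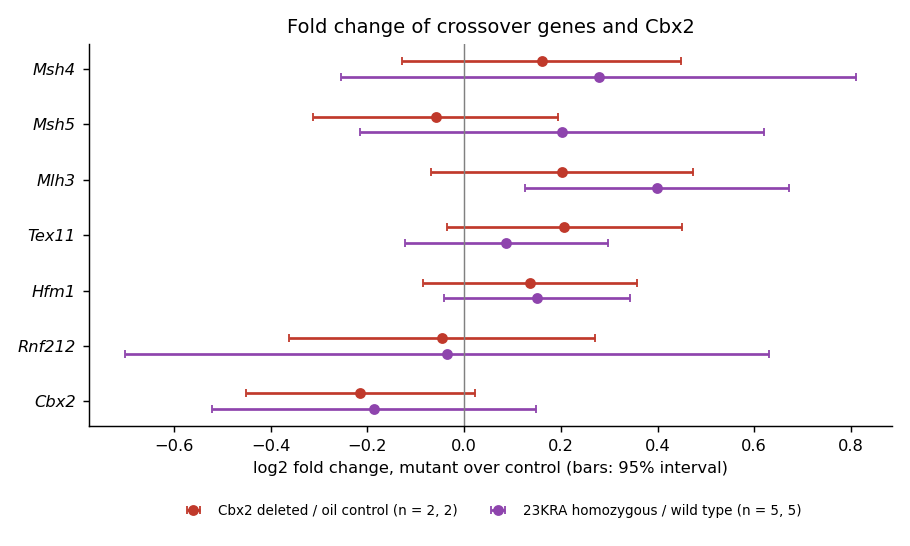
Log2 fold changes of the 6 crossover genes and Cbx2 with 95% intervals, Cbx2 deleted over oil control (n = 2 each) and 23KRA homozygous over wild type (n = 5 each). The intervals include 0 for all but Mlh3 in the 23KRA comparison (0.40, interval 0.13 to 0.67, not adjusted for the number of genes tested).

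Across the 10 libraries of the 23KRA experiment the crossover genes were set against each other in pairs. Of 15 pairs of members, the largest correlation of log2(CPM + 0.5) was that of Msh4 and Msh5 (Pearson r = 0.65, permutation p = 0.0427, adjusted over the 15 pairs p = 0.530; Spearman rho = 0.39, permutation p = 0.264, adjusted p = 0.660). It was 0.38 without the 2 libraries farthest from the Msh4 median, and 0.62 with each library centred on its group mean. Leaving out the extremes of Msh4 narrows its range, which can lower r by itself. The lower value therefore cannot show whether the correlation rests on those libraries. Msh5 and Rnf212 ran against each other (r = -0.51, permutation p = 0.134; rho = -0.72, permutation p = 0.0229, adjusted over the 15 pairs p = 0.332; r = -0.59 without the 2 farthest libraries). Msh5 and Tex11 did too (r = -0.49, permutation p = 0.151, and rho = -0.66, permutation p = 0.0442, adjusted p = 0.332). Their r was -0.18 without the 2 libraries farthest from the Msh5 median. No pair passed after adjustment, and all pairs share libraries, scaling and depth. With 10 libraries this does not show that the genes vary apart.

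The genes most like the members were also picked over these 10 libraries, as the highest of 8695 genes with a mean of at least 10 CPM, by Pearson's r of log2(CPM + 0.5). For Tex11 this was Kif20b, a mitotic kinesin gene (r = 0.96), for Msh4 Gm2a, which encodes the GM2 ganglioside activator (r = 0.94), and for Msh5 Asb1, of the SOCS-box family (r = 0.94). For Mlh3 it was Tbc1d23, a trafficking gene of the TBC family (r = 0.94), for Hfm1 Unc13b, of synaptic vesicle priming (r = 0.93), and for Rnf212 Ccdc73 (r = 0.94). For the mean z-score of the 6 members the highest were Rapgef6 (r = 0.97), Zdhhc13 (r = 0.94), Eif4g2 (r = 0.93), Polr2h (r = 0.91) and Usp9y (r = 0.88). With 10 libraries and so many genes searched, high values arise readily, and these are given as a description.

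**Figure D4:**
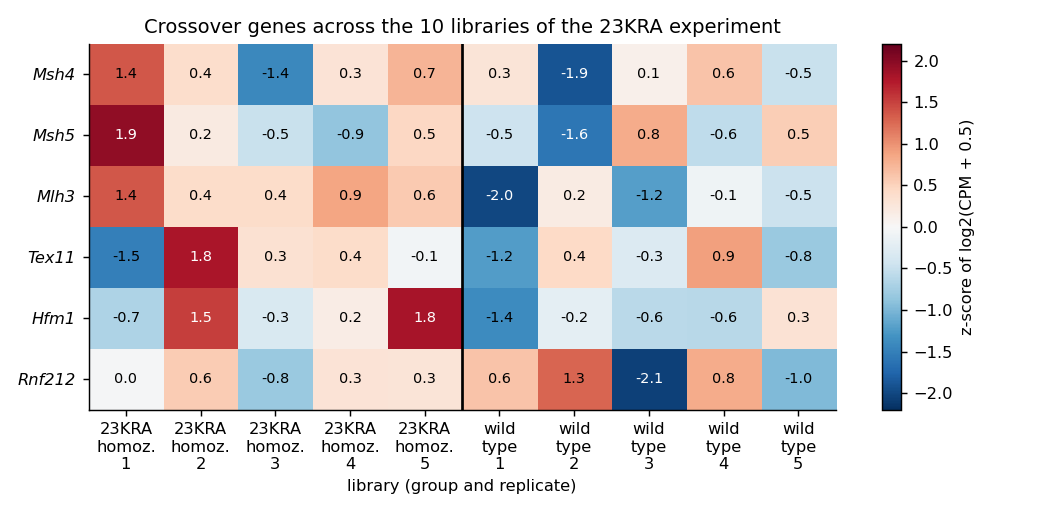
Level of each crossover gene in each of the 10 libraries of the 23KRA experiment, as z-scores of log2(CPM + 0.5) per gene over the 10 libraries (homozygous replicates left, wild type right). Homozygous replicate 1 is highest for Msh4, Msh5 and Mlh3 and lowest for Tex11; Mlh3 alone separates the groups.

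Other genes of the crossover pathway gave no calls in either experiment. Of 23 listed genes in 3 lists, 19 were found in the tables by symbol or synonym and tested in both. In the deletion 13 were above 0 and 6 below, with a median log2 fold change of 0.036, and in 23KRA 12 were above 0 and 7 below, with a median of 0.038. Among partners and designation factors (5 tested; median 0.049 in the deletion and -0.055 in 23KRA), Cdk2, the kinase found at crossover sites, had 280 ± 7.77 CPM in Cbx2-deleted animals and 271 ± 13.3 CPM in oil controls (SD, n = 2 each), and 91.7 ± 7.82 CPM in 23KRA homozygotes and 95.2 ± 6.37 CPM in wild type (SD, n = 5 each). Ccnb1ip1, which encodes the HEI10 ligase that limits RNF212, had 43.9 ± 5.14 CPM in Cbx2-deleted animals and 41.5 ± 1.59 CPM in oil controls, and 17.3 ± 2.40 CPM in homozygotes and 17.5 ± 4.37 CPM in wild type.

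Among the 7 resolution genes (median 0.035 in the deletion and 0.14 in 23KRA), Exo1, which encodes a nuclease of mismatch repair and crossover resolution, had 168 ± 9.56 CPM in Cbx2-deleted animals and 164 ± 3.25 CPM in oil controls, and 129 ± 13.8 CPM in homozygotes and 117 ± 7.61 CPM in wild type. Pms2, a mismatch repair gene, had 97.1 ± 2.07 CPM in Cbx2-deleted animals and 94.8 ± 4.81 CPM in oil controls, and Slx4, a nuclease scaffold, had 101 ± 14.2 CPM in homozygotes and 91.4 ± 11.7 CPM in wild type. Of the 7, 6 were above 0 in 23KRA and 5 in the deletion, and none passed. Among the 7 genes of dissolution and crossover limitation (median 0.036 in the deletion and 0.038 in 23KRA), the helicase gene Blm had 108 ± 5.22 CPM in Cbx2-deleted animals and 104 ± 4.04 CPM in oil controls, and 165 ± 15.7 CPM in homozygotes and 161 ± 9.07 CPM in wild type. Fancm, an anti-crossover helicase gene, had 158 ± 10.4 CPM in homozygotes and 150 ± 19.7 CPM in wild type. Fignl1, an AAA ATPase gene, had 205 ± 18.2 CPM in Cbx2-deleted animals and 173 ± 27.5 CPM in oil controls.

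The meiotic steps before crossing over gave no calls either. Of 15 tested genes of break formation and strand exchange, 10 were above 0 in each experiment (median 0.043 in the deletion and 0.073 in 23KRA). The recombinase gene Dmc1 had 263 ± 4.70 CPM in Cbx2-deleted animals and 259 ± 16.97 CPM in oil controls, and 158 ± 20.7 CPM in homozygotes and 142 ± 17.7 CPM in wild type. Of 14 genes of the synaptonemal complex and chromosome axis, 11 were above 0 in the deletion and 8 in 23KRA (median 0.070 and 0.012). Sycp1, of the transverse filament, had 1358 ± 75.6 CPM in Cbx2-deleted animals and 1291 ± 18.2 CPM in oil controls, and 1183 ± 161 CPM in homozygotes and 1164 ± 100 CPM in wild type. Sycp3, of the axis, had 1193 ± 159 CPM in Cbx2-deleted animals and 1048 ± 48.8 CPM in oil controls, and the cohesin gene Smc1b had 1533 ± 155 CPM in homozygotes and 1507 ± 32.4 CPM in wild type.

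Over these 5 lists, 3 genes in the deletion and 2 in 23KRA had an unadjusted edgeR p under 0.05; they were named after their values had been seen, and none passed after adjustment. In the deletion they were Cntd1, a crossover designation factor (log2 fold change 0.32, SE 0.13), Fignl1 (0.25, SE 0.12) and Spo11, of the break-forming enzyme (0.26, SE 0.12), where 4.74% of all genes reached that p. Without oil control replicate 2 the log2 fold change of Fignl1 was 0.09, and without oil control replicate 1 it was 0.43. With 1 library left out that of Cntd1 was 0.25 to 0.41 and that of Spo11 was 0.20 to 0.34. In 23KRA they were Syce3, of the synaptonemal complex (0.47, SE 0.17), and the cohesin gene Stag3 (-0.13, SE 0.06), where 3.04% of all genes reached that p.

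**Figure D5:**
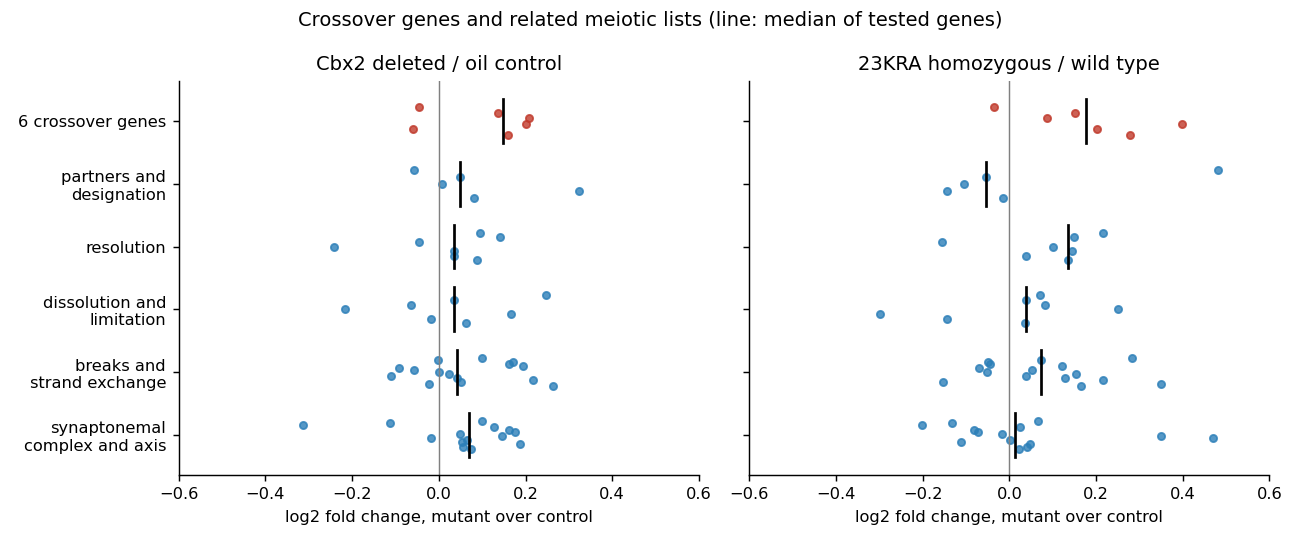
Log2 fold change of each tested gene in the 6 crossover genes and 5 related meiotic lists, Cbx2 deleted over oil control (left) and 23KRA homozygous over wild type (right); each point is a gene and each line the median of its list. The medians of the 6 crossover genes are 0.15 and 0.18, and no gene shown passed after adjustment.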

How the data were processed

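Sorted c-KIT-positive spermatogonia were profiled by bulk RNA sequencing. The authors deposited raw read counts per gene without normalization, 1 column a library and 24984 symbols a table. Per the submitters' processing notes, the mm10 build was used with STAR 2.5.3, Trim Galore 0.4.3, Subread 1.5.0, featureCounts and SAMtools 1.4.1. No source used here states the annotation, the strand setting or how multi-mapping reads were counted, so overlapping or antisense genes may share counts. Deletion libraries were made from polyA RNA and 23KRA libraries from total RNA depleted of ribosomal cDNA, per the labels' protocols; another label names polyA RNA as the molecule of the 23KRA libraries too, and this conflict was not resolved. The kits differ either way, so each experiment was scaled and tested apart.

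Genes were kept by filterByExpr and tested by the two-sided quasi-likelihood F test of edgeR 4.0.16 (R 4.3.3; TMM scaling, Benjamini-Hochberg over all tested genes, threshold 0.05). The standard error is the log2 fold change divided by the square root of F, and 95% intervals use the t quantile of the residual plus prior degrees of freedom. Both p-values and intervals set a difference against the spread between libraries, which is estimated in part from the spread shared across genes. Exon lengths and positions are from GENCODE M21, which may differ from the annotation counted. The test was run before use on counts simulated from its own model with independent libraries. Such counts cannot show how it fares where replicates share variation. The genes and lists were chosen with earlier results of these data known; beside them are named the 2 most abundant tested genes of each of 5 meiotic lists and the most alike genes; 1 gene that this rule names is not reported here. Lists of marker genes for other cell types gave the summed levels quoted. Of the listed genes, 4 crossover partners, Ankrd31 and Meiosin were not matched to a row. Alternatives were DESeq2 1.42.0, limma-voom (limma 3.58.1), other scalings (RLE, upper quartile), other filters (none, or 5 CPM), a replicate block, leaving out each library, and leaving out the 2 libraries with the fewest genes detected.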

Additional observations from a re-analysis of the deposited data

Results flagged for a closer look

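In the 23KRA experiment the groups of 5 libraries were examined for a single library far from the other 4, over 44 sets of values (the 6 crossover genes, Cbx2 and the summed levels of the lists in each group). Chance flags about 1 in 20 such groups, and 5 were found, none of them a level of a single crossover gene. Homozygous replicate 2 was highest for the summed genes of break formation and strand exchange, at 965 CPM where the other homozygotes held 809 to 842 CPM. Wild-type replicate 2 was highest for crossover partners and designation factors, at 168 CPM against 132 to 142 CPM in the other wild-type libraries. Wild-type replicate 1 was highest for dissolution and limitation genes, at 658 CPM against 623 to 624.5 CPM. Wild-type replicate 3 was highest for the Leydig markers, at 20.3 CPM against 13.0 to 14.4 CPM, and for the macrophage markers, at 139 CPM against 9.38 to 32.1 CPM.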

How the results depend on the processing

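No crossover gene passed the adjusted threshold under any of 11 alternatives in the deletion or 18 in 23KRA. Genes called in the deletion numbered 2, and 8 with no filter, 1 each with the 5 CPM filter, DESeq2 and limma-voom, and 2 to 73 with 1 library left out (73 without Cbx2-deleted replicate 2). The median log2 fold change of the members was 0.062 to 0.154 with 1 library left out of the deletion (0.062 without oil control replicate 2) and 0.129 to 0.229 in 23KRA. With replicate numbers as a replicate block, 62 genes were called in the deletion and 2 in 23KRA, none of them a member (Tex11 in the deletion, edgeR adjusted p = 0.219). Same-numbered libraries correlated at -0.042 to 0.436 in 23KRA, where 8 of 10 correlated best with their own number. In the deletion the correlation was 0.412. With 2 libraries a group, centred on the group mean, both pairs must give the same number, so this is a single value. The labels give no shared litter, batch or day, so the main tests do not use the numbers. In 23KRA 1 of the 5 pairs did not correlate, which does not show that the others are unpaired. Summed spermatid markers were 483, 220, 411, 675 and 1004 CPM in homozygous replicates 1 to 5. In wild-type replicates 1 to 5 they were 551, 271, 761, 775 and 995 CPM. Replicate 2 was the lowest and replicate 5 the highest in both groups. The correlations are a hint from the data of shared variation, which the main tests leave in the spread between libraries.

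The sign turned for these log2 fold changes. In 23KRA Rnf212 was 0.057 with the block and 0.047 with limma-voom, and Ccnb1ip1 was 0.015 and 0.031 with these and 0.052 after leaving out wild-type replicates 2 and 3, which had the fewest genes detected, where Fancm was -0.031. With 1 library left out, deletion values ran from -0.174 to 0.051 for Msh5, -0.092 to 0.0017 for Rnf212, -0.039 to 0.196 for Ccnb1ip1, -0.021 to 0.090 for Exo1, -0.017 to 0.098 for Pms2 and -0.042 to 0.102 for Dmc1. In 23KRA they ran from -0.00050 to 0.309 for Msh5, -0.0011 to 0.156 for Tex11, -0.215 to 0.135 for Rnf212, -0.149 to 0.074 for Ccnb1ip1, -0.021 to 0.071 for Blm, -0.035 to 0.052 for Smc1b and -0.031 to 0.079 for Sycp1. The cause was not tested. Rnf212, with the fewest counts, had the widest interval of the 6 genes in 23KRA.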
